A study of Mus musculus with 24 samples.

Results

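The 9 genes described here are the transforming growth factor beta (TGF-beta) ligands Tgfb1, Tgfb2 and Tgfb3, the signalling receptors Tgfbr1 and Tgfbr2, and the pathway targets Ccn2, Tgfbi, Ltbp2 and Pmepa1. They were taken by symbol from a table of 55487 genes, each symbol named 1 row, and all 9 passed the filter on low counts that left 18339 genes for testing. They were measured by bulk RNA sequencing of whole kidneys from 24 male mice at 15 weeks of age, all on the B6 background and all with X-linked Alport syndrome (XLAS), a kidney disease of faulty type IV collagen, here from the Nbl1xCol4a5 cross. The mice were HET (heterozygous, 13 mice) or WT (11 mice) for Nbl1, which encodes a secreted antagonist of bone morphogenetic proteins. Batch 2 held 7 HET and 5 WT mice and batch 1 held 6 HET and 6 WT mice. The labels do not describe the Nbl1 allele or the Col4a5 mutation, and every mouse carried the disease, so no value here compares diseased with healthy kidney.

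TGF-beta ligands are secreted in a latent complex bound to matrix and must be released before they can act. The active ligand binds TGFBR2, which recruits and phosphorylates TGFBR1, and TGFBR1 phosphorylates Smad2 and Smad3, which enter the nucleus with Smad4 and switch target genes on or off. In the kidney the pathway is best known for driving matrix deposition and scarring in glomeruli and in the interstitium.

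Every library was deep enough to count each of the 9 genes. Total counts ran from 36380374 to 50746652 per library in batch 2 and from 29551337 to 33019871 in batch 1, and the lowest count of any of the 9 in a library was 77, of Tgfb3. Counts were scaled to counts-per-million (CPM) with TMM factors, which correct for library composition. Nbl1 ran from 4.22 to 7.82 CPM in the HET mice and from 7.0 to 15.1 CPM in the WT mice of batch 2. In batch 1 it ran from 3.86 to 9.24 CPM in the HET mice and from 3.62 to 7.78 CPM in the WT mice. In batch 1 there were 3 libraries that went against their labels. The library labelled HET replicate 6 had the 9.24 CPM and an Htr6 count of 0 (up to 3 counts are then still possible), where the other HET libraries all held counts of this gene beside Nbl1. The libraries labelled WT replicate 1 and WT replicate 2 had Nbl1 at 5.41 and 3.62 CPM and Htr6 at 0.795 and 0.440 CPM, where Htr6 in the other WT libraries of batch 1 was at most 0.0330 CPM. Groups follow the labels below, and values without these 3 libraries are given for the 9 genes and for the relations between mice that passed a test. The kidney label held in every library for a defining gene of proximal tubule, as the lowest library had 3778.57 CPM of Lrp2, the receptor megalin.

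RefSeq promoters of 250 bases before to 50 after the RefSeq start were at hand for 6 of the 9 genes. That start was 41 bases from the GENCODE gene start for Ltbp2, 63 for Tgfbi and 3 for Tgfbr2. Tgfbr1 had 2 entries, of which the nearest to the GENCODE start was used. Of these promoters 2 are printed because Tgfb1 and Ltbp2 were 1 of the pairs that moved together across mice, described further on. Both are on GRCm38.p6 and are written 5′ to 3′ along the gene, with capitals marking the Smad core motif CAGAC or the GC box GGGCGG on either strand.

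Tgfb1 promoter, chr7:25686752-25687051, plus strand: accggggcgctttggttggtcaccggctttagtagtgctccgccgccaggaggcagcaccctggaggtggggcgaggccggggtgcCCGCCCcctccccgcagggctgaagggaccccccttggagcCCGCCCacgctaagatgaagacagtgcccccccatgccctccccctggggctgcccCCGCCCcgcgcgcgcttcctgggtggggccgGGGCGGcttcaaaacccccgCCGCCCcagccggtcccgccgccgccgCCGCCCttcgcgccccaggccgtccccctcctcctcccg

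Ltbp2 promoter, chr12:84876442-84876741, minus strand: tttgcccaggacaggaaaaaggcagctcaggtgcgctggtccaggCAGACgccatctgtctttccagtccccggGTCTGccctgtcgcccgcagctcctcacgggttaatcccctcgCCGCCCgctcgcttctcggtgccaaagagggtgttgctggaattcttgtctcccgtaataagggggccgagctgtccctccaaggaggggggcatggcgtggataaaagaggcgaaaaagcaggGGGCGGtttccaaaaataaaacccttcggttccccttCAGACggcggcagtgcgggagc

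The Tgfb1 window held 6 GC boxes, the earliest 164 bases before the start and the last 12 bases after it, and CAGAC was not in it. The Ltbp2 window held 3 CAGAC matches and 2 GC boxes, with no matched bases shared between motifs. Of the other genes with an entry, Tgfb2 held 2 CAGAC matches, Tgfbr2 held 1, Tgfbi held 2 beside 2 GC boxes, and Tgfbr1 held 2 GC boxes. CAGAC was found in 49.6% and GGGCGG in 35.7% of all 32851 promoters of this length. The AP-1 letters TGANTCA (7.81% of all promoters) and the TEAD letters GGAATG (14.7%) were searched on both strands too and are not in these 6 windows. Tgfb3, Ccn2 and Pmepa1 had no entry.

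Among the ligands, Tgfb1 made up most of the transcripts. Per transcript length, on the transcripts-per-million (TPM) scale that the authors deposited, Tgfb1 averaged 13.1 ± 2.45 TPM in batch 2 and 9.39 ± 1.95 TPM in batch 1 (SD, n = 12 each). Tgfb3 averaged 1.65 ± 0.291 TPM in batch 2 and 0.705 ± 0.196 TPM in batch 1, and Tgfb2 averaged 1.23 ± 0.300 TPM in batch 2 and 0.714 ± 0.267 TPM in batch 1. Tgfb1 was thus 84.3% ± 3.35 of the summed TPM of the 3 ligands (SD, n = 24), between 77.3% and 90.1% in a library. Its share averaged 81.8% in batch 2 and 86.9% in batch 1, where the share of Tgfb3 was 10.4% in batch 2 and 6.60% in batch 1. Tgfb3 stood above Tgfb2 in 10 of 12 libraries of batch 2 and in 6 of 12 of batch 1, so these neighbours were not separated in batch 1.

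The target Ccn2, which encodes the matricellular protein also called connective tissue growth factor, had the highest level of the 9 genes. It averaged 52.0 ± 14.9 TPM in batch 2 and 22.2 ± 7.25 TPM in batch 1 (SD, n = 12 each) and was above Tgfbr2 in 23 of 24 libraries. The receptors came next, with Tgfbr2 at 31.5 ± 4.08 TPM in batch 2 and 14.7 ± 1.27 TPM in batch 1, and Tgfbr1 at 20.96 ± 1.86 TPM in batch 2 and 12.1 ± 1.12 TPM in batch 1. Tgfbr2 was above Tgfbr1 in all 24 libraries, and the ratio of the TPM of Tgfbr2 to that of Tgfbr1 was 1.502 ± 0.125 in batch 2 and 1.22 ± 0.0522 in batch 1. Tgfbr1 was above Pmepa1 in 22 of 24 libraries and Pmepa1 above Tgfbi in 18. Pmepa1, whose product holds receptor-activated Smads back and so damps the pathway, averaged 19.3 ± 3.43 TPM in batch 2, above the mean of Tgfb1 there, and 7.74 ± 1.04 TPM in batch 1, below it. Tgfbi, a secreted protein that links collagens to integrins, averaged 18.1 ± 4.49 TPM in batch 2 and 6.77 ± 1.03 TPM in batch 1, and it stood above Tgfb1 in all 12 libraries of batch 2 and in 0 of 12 of batch 1. Ltbp2, a microfibril protein of the latent TGF-beta binding protein family, averaged 5.35 ± 1.64 TPM in batch 2 and 1.96 ± 0.691 TPM in batch 1. It was below Tgfb1 and above Tgfb3 in all 24 libraries.

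**Figure D1:**
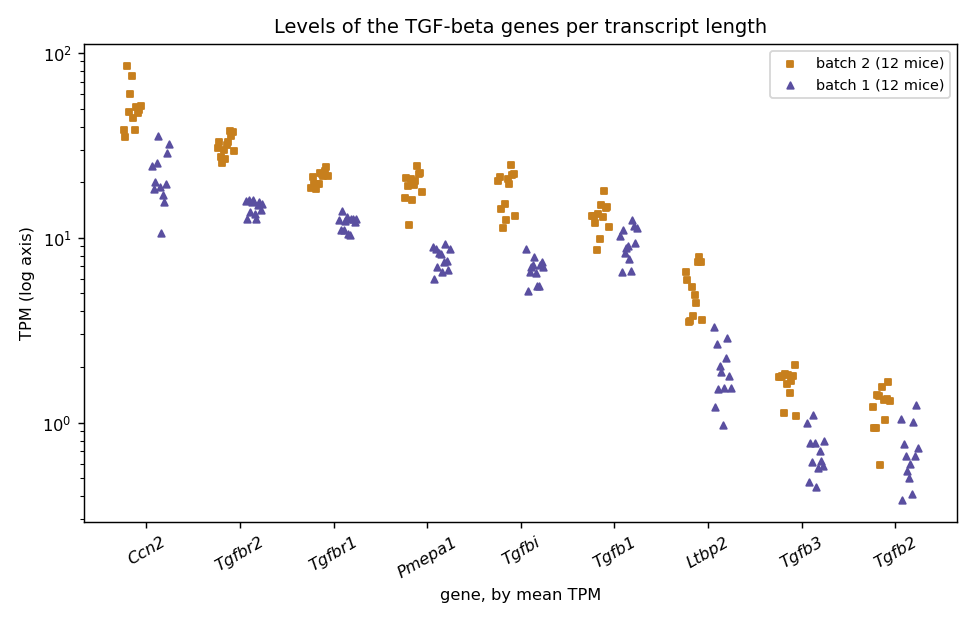
TPM of each gene on a log axis, with 1 point per mouse, 12 mice of batch 2 left and 12 mice of batch 1 right of each tick. Ccn2 and the receptors Tgfbr2 and Tgfbr1 lie at the top and Tgfb3 and Tgfb2 at the bottom, and the means of Tgfbi and Pmepa1 stand above that of Tgfb1 in batch 2 and below it in batch 1.

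Levels in TPM cannot be set side by side between the batches as they stand. The FPKM values of a library summed to between 693457 and 751757 in batch 2 and to between 1417698 and 1752387 in batch 1, and the median difference of all 18339 genes between the batches was 0.69 on the log2(TPM + 1) scale, against 0.03 after TMM scaling of counts. On the TMM scale, 7 of the 9 genes passed edgeR's quasi-likelihood test for batch 2 against batch 1 at an adjusted p under 0.05, beside 63.5% of all genes tested, and 7 of 9 had an unadjusted p under 0.05, beside 66.3%. The genes higher in batch 2 were Ltbp2 (log2 fold change 0.56, SE 0.15), Tgfbi (0.51, SE 0.09), Tgfb3 (0.28, SE 0.10), Tgfbr2 (0.18, SE 0.03) and Pmepa1 (0.15, SE 0.04). Genes higher in batch 2 were 32.6% of all genes tested and genes lower in batch 2 were 30.9%. Tgfb1 was lower in batch 2, at -0.52 (SE 0.06), and so was Tgfbr1, at -0.15 (SE 0.04). On the log2(TPM + 1) scale both had the other sign, at 0.45 and 0.75, which relative to the shift of 0.69 leaves Tgfb1 below and Tgfbr1 close to the median gene. On the log2(TPM + 0.1) scale the median gene was at 0.89, with Tgfb1 at 0.49 and Tgfbr1 at 0.80, both below it. Without the 3 libraries in question Tgfb3 was at 0.24 and no longer passed (edgeR adjusted p = 0.0614). The batches differed in depth as well, and what else set them apart was not tested.

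None of the 9 genes passed the test between HET and WT kidneys. HET was set against WT by edgeR's quasi-likelihood test with batch in the model, with p-values adjusted over all genes tested. Of the 9 genes 0 passed over all mice, where 0% of the 18339 genes passed and 4.12% had an unadjusted p under 0.05. Of the 9, 2 had such an unadjusted p, Tgfb3 and Tgfb2. DESeq2's Wald test and limma voom also called 0 of the 9. As labelled, Nbl1 itself did not pass either. Its log2 fold change was -0.67 over all mice (SE 0.17, edgeR adjusted p = 0.997). It was -0.97 in batch 2 (edgeR adjusted p = 0.466) and -0.35 in batch 1. Without the 3 libraries that went against their labels Nbl1 passed over all mice, at -0.91 (edgeR adjusted p = 0.000496), and 0 of the 9 did. Those libraries were doubted in part for their Nbl1 level, so that pass is no independent check. In batch 2 alone 0 of 9 passed beside 0.00557% of all genes, and in batch 1 alone 0 of 9 passed beside 0%. Of the 9, 0 had an unadjusted p under 0.05 in batch 2, where 8.28% of all genes had one, and 0 in batch 1, where 2.82% did. The interaction of genotype with batch passed for 0 of the 9 and for 0% of all genes, and 0 of the 9 had an unadjusted p under 0.05 there, beside 8.2% of all genes. The median log2 fold change of the 9 genes, HET over WT, was -0.03 over all mice beside 0.01 for all genes, and 2 of the 9 were above 0. It was -0.08 in batch 2 beside 0.00021 for all genes, with 2 of 9 above 0, and 0.02 in batch 1 beside -0.0012, with 5 of 9 above 0. In every batch the HET and WT ranges overlapped for each of the 9 genes. The share of all genes whose ranges overlap was not tested.

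**Figure D2:**
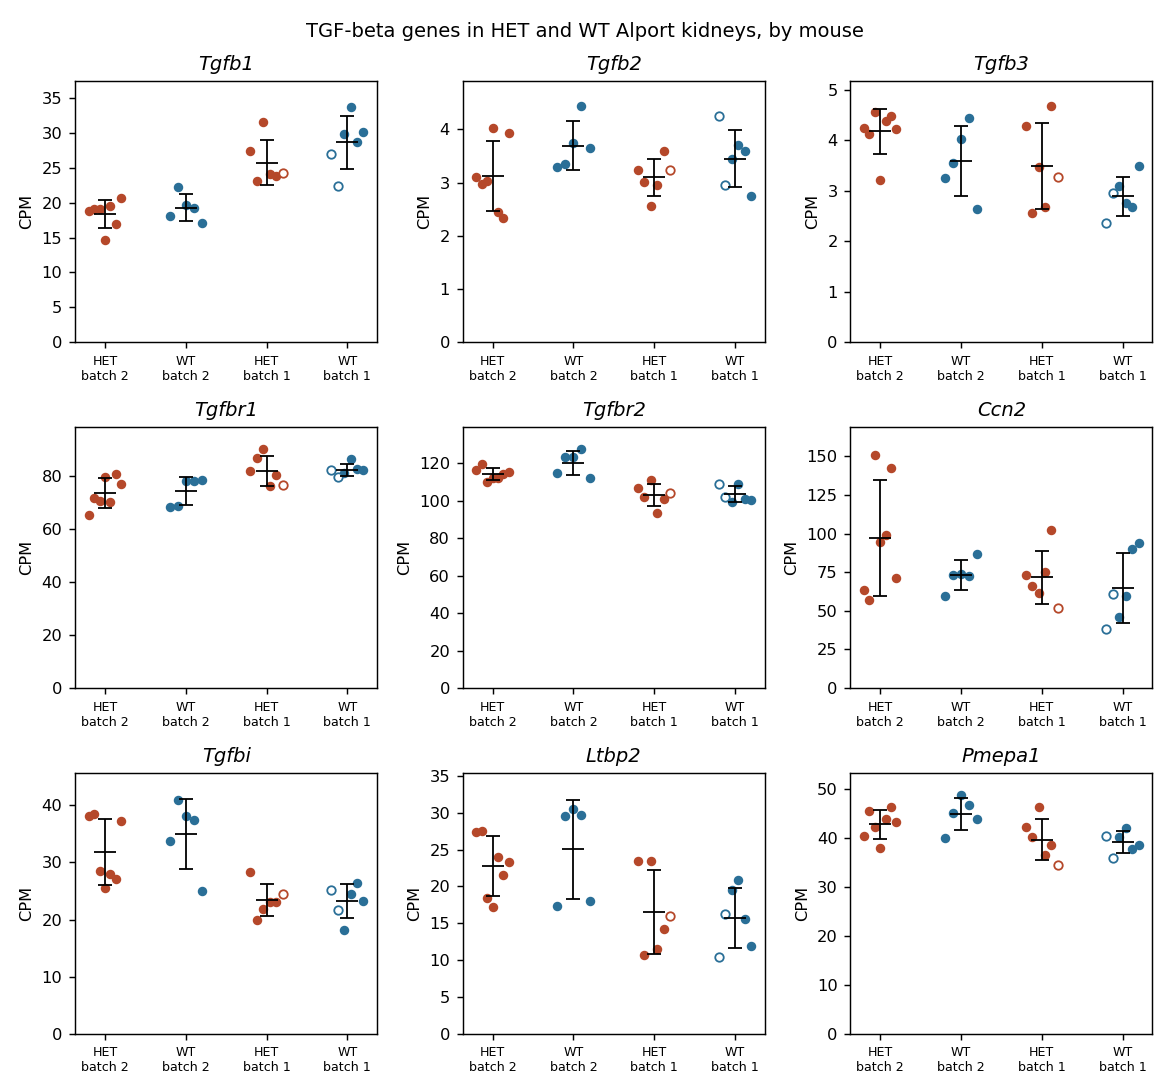
CPM of each gene in each mouse, with HET left of WT within batch 2 and then within batch 1. Long ticks are means and bars are SD (7 HET and 5 WT mice in batch 2, 6 and 6 in batch 1), open circles are the 3 libraries that went against their labels, and the HET and WT points overlap in every panel and batch.

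Tgfb1, the main ligand, had 14.7 CPM in the lowest, 19.1 CPM in the median and 20.6 CPM in the highest of the 7 HET mice of batch 2, against 18.1, 22.3, 19.7, 19.2 and 17.1 CPM in the 5 WT mice. In batch 1 the lowest, median and highest were 23.2, 24.16 and 31.6 CPM in the HET mice, against 22.4, 29.3 and 33.7 CPM in the WT mice. The HET and WT mice of a batch shared most of their range, and every mouse of batch 1 was above every mouse of batch 2. The log2 fold change, HET over WT, was -0.11 (SE 0.06, edgeR unadjusted p = 0.0898, adjusted p = 0.997). It was -0.08 (SE 0.08) in batch 2 and -0.16 (SE 0.09) in batch 1. Without the 3 libraries in question it was -0.15 over all mice (unadjusted p = 0.0263, edgeR adjusted p = 0.922) and -0.24 in batch 1.

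Tgfb2 lay lower in HET than in WT by means in both batches. In batch 2 it had 2.33, 3.03 and 4.02 CPM in the lowest, median and highest HET mouse, against 3.30, 3.35, 3.75, 4.44 and 3.64 CPM in the WT mice, and 5 of the 7 HET mice were under every WT mouse. In batch 1 it had 2.57, 3.12 and 3.60 CPM in the lowest, median and highest HET mouse, against 2.75, 3.52 and 4.25 CPM in the WT mice. The log2 fold change was -0.20 (SE 0.09, edgeR unadjusted p = 0.0419, adjusted p = 0.997), or 0.871-fold with a 95% interval of 0.762 to 0.995. It was -0.26 (SE 0.14) in batch 2, -0.16 (SE 0.13) in batch 1 and -0.21 over all mice without the 3 libraries.

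Tgfb3 lay the other way. In batch 2 it had 3.22, 4.23 and 4.56 CPM in the lowest, median and highest HET mouse, against 3.25, 3.56, 4.02, 4.44 and 2.64 CPM in the WT mice. In batch 1 it had 2.55, 3.38 and 4.67 CPM in the lowest, median and highest HET mouse, against 2.35, 2.85 and 3.49 CPM in the WT mice. Of the HET mice of batch 2, 6 lay between 4.12 and 4.56 CPM, and HET replicate 10 stood apart at 3.22 CPM. The log2 fold change, HET over WT, was 0.25 (SE 0.10, edgeR unadjusted p = 0.0203, adjusted p = 0.997), or 1.19-fold with an interval of 1.03 to 1.37. It was 0.20 (SE 0.13) in batch 2, 0.27 (SE 0.15) in batch 1 and 0.21 over all mice without the 3 libraries (unadjusted p = 0.0650).

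The receptors had the narrowest intervals. Tgfbr2, the receptor that binds ligand first, averaged 114 ± 3.27 CPM in HET and 120 ± 6.40 CPM in WT mice of batch 2 (SD, n = 7 and 5), and 103 ± 6.001 CPM in HET and 104 ± 4.31 CPM in WT mice of batch 1 (SD, n = 6 each). Its HET over WT fold was 0.973 over all mice, with an interval of 0.933 to 1.01, and its log2 fold change was -0.09 (SE 0.04, edgeR unadjusted p = 0.0519) in batch 2 and -0.0061 in batch 1. Tgfbr1, the receptor kinase that signals to the Smads, averaged 73.7 ± 5.70 CPM in HET and 74.5 ± 5.26 CPM in WT mice of batch 2, and 82.1 ± 5.54 CPM in HET and 82.6 ± 2.24 CPM in WT mice of batch 1. Its fold was 0.992, with an interval of 0.942 to 1.04. Neither receptor passed the test, and without the 3 libraries their log2 fold changes over all mice were -0.05 for Tgfbr2 and -0.02 for Tgfbr1.

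Ccn2 was the most variable of the 9 genes between mice. In batch 2 it had 56.8, 94.6 and 151 CPM in the lowest, median and highest HET mouse, against 59.5, 73.4, 73.5, 72.2 and 86.6 CPM in the WT mice. HET replicates 9 and 12 were the high ones, at 151 and 143 CPM. In batch 1 the lowest, median and highest were 52.0, 69.5 and 102 CPM in the HET mice, against 38.1, 60.0 and 94.1 CPM in the WT mice. In batch 2, 4 HET mice were above every WT mouse and 1 was below every WT mouse. The log2 fold change was 0.28 (SE 0.18, edgeR unadjusted p = 0.136, adjusted p = 0.997), or 1.21-fold with a wide interval of 0.937 to 1.57. It was 0.39 (SE 0.26) in batch 2, 0.15 (SE 0.25) in batch 1, and 0.24 over all mice and 0.06 in batch 1 without the 3 libraries. Single mice moved the values within a batch. It was 0.25 in batch 2 without HET replicate 9, and in batch 1 it was 0.02 without HET replicate 5 and 0.28 without WT replicate 6. Of the exon bases of Ccn2, 665 (23.2%) also lie in exons of Gm15270 on the other strand, which averaged 0.527 CPM; the sources used here do not give the strand setting of the counts.

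Ltbp2 varied almost as widely, with a mix of high and low mice in each group. In batch 2 it had 17.2, 23.3 and 27.5 CPM in the lowest, median and highest HET mouse, against 17.3, 29.6, 30.5, 29.7 and 17.97 CPM in the WT mice, so the WT mice fell into 3 high and 2 low ones. In batch 1 it had 10.6, 15.2 and 23.5 CPM in the lowest, median and highest HET mouse, against 10.4, 15.9 and 20.9 CPM in the WT mice. The log2 fold change was -0.03 (SE 0.15), with a fold interval of 0.782 to 1.22, and it was -0.15 (SE 0.18) in batch 2 and 0.07 (SE 0.25) in batch 1. Leaving out the 3 libraries gave -0.10 over all mice and turned the value in batch 1 to -0.03. Exons of D030025P21Rik on the other strand share 9.34% of its exon bases.

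Tgfbi averaged 31.9 ± 5.79 CPM in HET and 35.0 ± 6.16 CPM in WT mice of batch 2 (SD, n = 7 and 5), and 23.4 ± 2.84 CPM in HET and 23.2 ± 2.95 CPM in WT mice of batch 1 (SD, n = 6 each). The WT mouse that was low in Ltbp2 at 17.97 CPM, replicate 11, was also the lowest WT mouse of batch 2 in Tgfbi, at 25.0 CPM. The log2 fold change of Tgfbi was -0.06 (SE 0.09) over all mice, -0.15 (SE 0.15) in batch 2 and 0.02 (SE 0.09) in batch 1. Pmepa1 averaged 42.7 ± 2.93 CPM in HET and 44.8 ± 3.29 CPM in WT mice of batch 2, and 39.6 ± 4.22 CPM in HET and 39.1 ± 2.21 CPM in WT mice of batch 1. Its fold was 0.983 over all mice, with an interval of 0.924 to 1.05. Neither passed the test, and without the 3 libraries their log2 fold changes over all mice were -0.09 and -0.04.

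**Figure D3:**
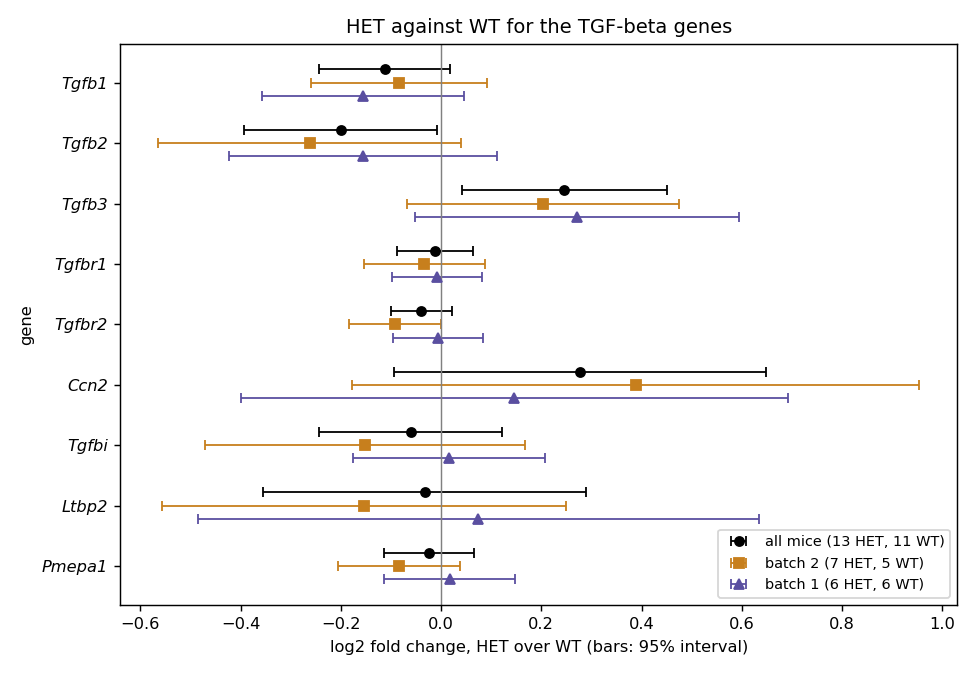
Log2 fold change of HET over WT for each gene with its 95% interval, over all mice (circles), in batch 2 (squares) and in batch 1 (triangles). The intervals of Tgfb2 and Tgfb3 over all mice leave out 0 before adjustment, all the others include 0, and Ccn2 and Ltbp2 have the widest.

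No gene of the other pathway lists passed between the genotypes either. Of 13 genes that hold TGF-beta latent or release it, 0 passed over all mice and 7 had a positive log2 fold change. Thbs1, the thrombospondin that activates latent ligand, had 0.28 (SE 0.13, edgeR unadjusted p = 0.0509), Lrrc32, which holds latent ligand on cell surfaces, 0.18 (SE 0.12), the proprotein convertase Furin -0.04 and the integrin chain Itgb6 0.06. Without HET replicate 5, Thbs1 had 0.15 and Lrrc32 had 0.08. Of 10 receptor partners and inhibitors, 0 passed and 6 were positive. Bambi, a decoy receptor, had -0.14 (SE 0.10), Fkbp1a, which keeps TGFBR1 inactive, 0.06 (SE 0.03) and the ligand-binding proteoglycan Bgn 0.02 (SE 0.06).

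Of 14 Smads and their regulators 0 passed and 9 were positive. Smad2, which TGFBR1 phosphorylates, had -0.07 (SE 0.03, edgeR unadjusted p = 0.0186), the ubiquitin ligases Smurf1 and Wwp1 had -0.07 and 0.02, and the Smad phosphatase Ppm1a had 0.02. Of the 23 tested of 24 other genes that respond to TGF-beta, 0 passed and 18 were positive, with a median of 0.05 beside 0.01 for all genes. Snai2, a transcriptional repressor of epithelial genes, had -0.26 (SE 0.12, edgeR unadjusted p = 0.0342), the smooth muscle gene Tagln 0.17 (SE 0.09), the oxidase Nox4 0.02 and collagen III, from Col3a1, 0.05 (SE 0.11). The adjusted p of all these genes was 0.997 by edgeR. The signs were not alike in the batches. Positive log2 fold changes numbered 11 in batch 2 and 20 in batch 1 of the 23 responsive genes, whose median was -0.0063 in batch 2 and 0.10 in batch 1. They numbered 5 in batch 2 and 9 in batch 1 of the 13 latency genes, 3 and 9 of the 10 receptor partners and 9 and 7 of the 14 Smads and regulators. The median of all genes was 0.00021 in batch 2 and -0.0012 in batch 1. The 3 libraries that went against their labels were all in batch 1, and these counts were not taken without them. The share of all genes with a positive value was not tested. The interaction of genotype with batch passed by edgeR for 0 genes of these lists, and the genes with an unadjusted p under 0.05 for it were 0 of the responsive genes, 2 of the latency genes, 1 of the receptor partners and 2 of the Smads and regulators, beside 8.2% of all genes. Between batches 2 and 1, the genes that passed higher and lower in batch 2 were 3 and 3 of the 13 latency genes, 6 and 1 of the 10 receptor partners, 2 and 6 of the 14 Smads and regulators and 11 and 1 of the 23 responsive genes, beside 32.6% higher and 30.9% lower of all genes tested.

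The measured level of Nbl1 was set against the 9 genes too, as a slope on its log2 CPM with genotype and batch in the model. The slope passed for 0 of the 9 and for 0.0109% of all genes. That share includes Nbl1 itself, whose pass on its own level was fixed in advance. Of the 9, 1 had an unadjusted p under 0.05, Tgfbi, as did 11.2% of all genes. The slope of Tgfbi was 0.24 log2 units for each log2 unit of Nbl1 (SE 0.10, edgeR unadjusted p = 0.0308, adjusted p = 0.413), and 0.49 without the 3 libraries (adjusted p = 0.273). Without these libraries Tgfb3 (slope 0.47) and Tgfbr2 (slope 0.13) also had an edgeR unadjusted p under 0.05, at 0.0177 and 0.0391. Their edgeR adjusted p was 0.321 and 0.386, and 2244 of all 18528 genes tested then had an unadjusted p under 0.05. On the log2(TPM + 1) scale 7 of the 9 passed, beside 7755 of all 18339 genes tested. The median slope of all genes moved to 0.16 there.

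Co-variation across mice was described after removing the mean of each genotype and batch group as labelled. Differences between the labelled groups thus could not set it, and the 3 libraries that went against their labels stayed in their labelled groups. The SD of log2 CPM within these groups was 0.44 for Ccn2 and 0.39 for Ltbp2, wider than in 85.4% and 81.2% of the genes tested. It was 0.25 for Tgfb3, 0.23 for Tgfbi and Tgfb2, 0.17 for Tgfb1 and 0.11 for Pmepa1, where the median gene had 0.16. The receptors were the steadiest, at 0.09 for Tgfbr1 and 0.07 for Tgfbr2, the second of which was wider than in only 5.603% of genes. Over all 24 mice the highest CPM of Ccn2 was 3.95 times the lowest, and that of Tgfbr2 was 1.37 times the lowest.

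Tgfb1 moved with Ltbp2 and with Pmepa1. Pairs were tested by a two-sided permutation test of mice within groups with Benjamini-Hochberg adjustment. Of the 36 pairs among the 9 genes, 2 passed at an adjusted p under 0.05 and 12 had an unadjusted p under 0.05. The share of pairs of other genes that would pass was not tested, so these counts cannot be called particular to the 9 genes. For Tgfb1 with Ltbp2, Pearson's r was 0.62 and Spearman's rho 0.68 (n = 24, permutation p = 0.00262, adjusted p = 0.0472), with r of 0.67 in batch 2 and 0.59 in batch 1. For Tgfb1 with Pmepa1, r was 0.63 and rho 0.51 (permutation p = 0.00183, adjusted p = 0.0472), with r of 0.47 in batch 2 and 0.75 in batch 1. Without the 2 mice farthest from the median of Tgfb1, r was 0.72 with Ltbp2 and 0.52 with Pmepa1. Without the 3 libraries that went against their labels, r was 0.73 (adjusted p = 0.0131) and 0.65 (0.0418), and 6 of the 36 pairs passed. Both calls sat close to the threshold, and by Spearman's rho that with Pmepa1 did not pass (permutation adjusted p = 0.0974). Leaving out 1 mouse at a time ended the call with Ltbp2 in 17 of 24 fits and that with Pmepa1 in 16, with a largest adjusted p of 0.0956, without HET replicate 3. The call with Ltbp2 was kept without HET replicates 6 or 9 and without WT replicates 1, 2, 3, 5 or 6, and r lay between 0.55 and 0.74. The call with Pmepa1 was kept without HET replicates 6, 9 or 12 and without WT replicates 1, 3, 5, 6 or 8, and r lay between 0.53 and 0.70. Pmepa1 also had an r of 0.53 with the log2 total count of the library, and Tgfb1 had 0.32 and Ltbp2 0.11; the part of depth in the pair was not tested.

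The steady receptor Tgfbr2 came next. Its r was 0.62 with Ltbp2, 0.61 with Pmepa1 and 0.54 with Tgfbi, each at a permutation adjusted p of 0.0528, just short of the threshold. Within batch 2 it had 0.89 with Ltbp2 and 0.79 with Tgfbi, against 0.46 and 0.30 within batch 1. Ccn2 passed with none of the other genes. Its r was -0.32 with Tgfbi, -0.21 with Ltbp2 and 0.0031 with Pmepa1, and its most negative value was -0.41 with Tgfbr2 (rho -0.47, permutation p = 0.0289, adjusted p = 0.0972).

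**Figure D4:**
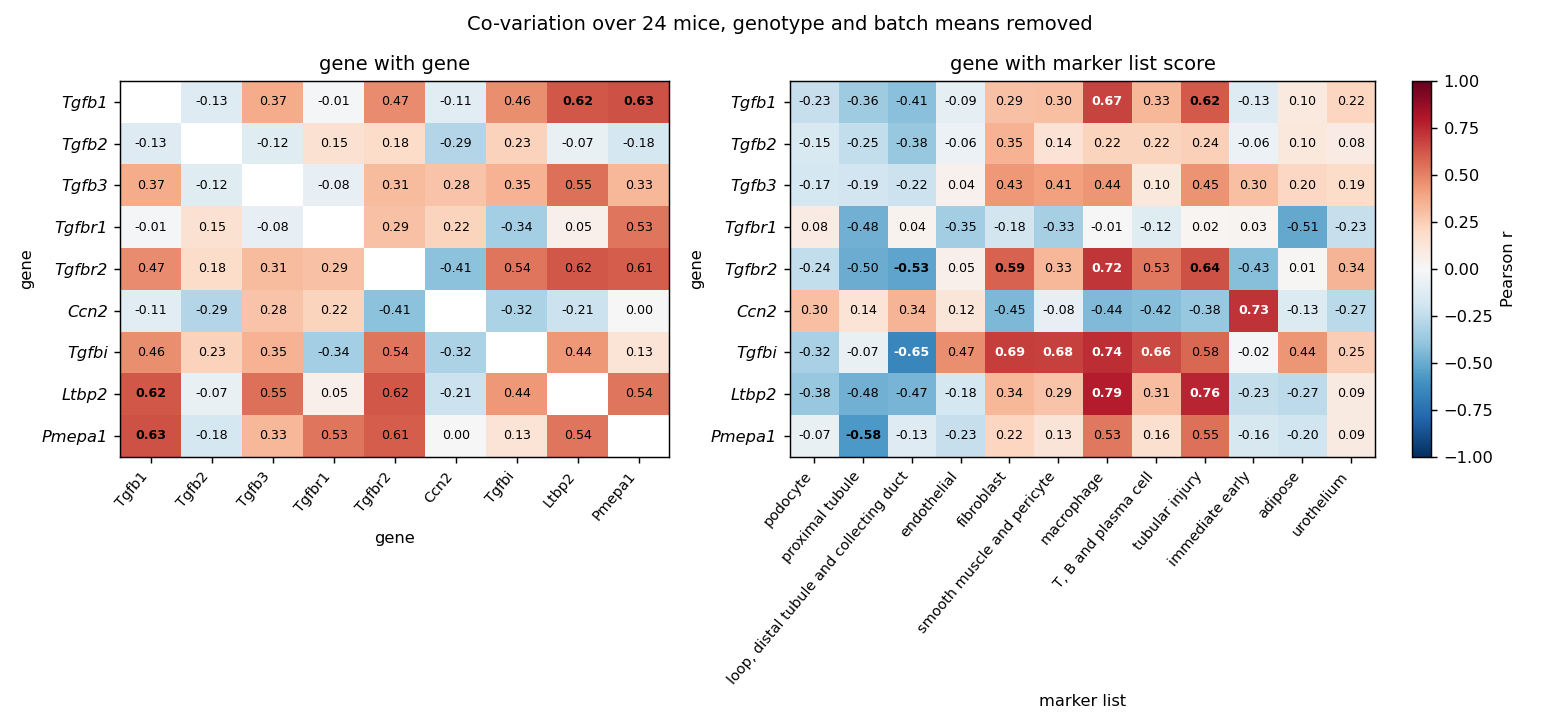
Pearson r across 24 mice of log2 CPM with genotype and batch means removed, between the 9 genes (left) and of each gene with the mean of 12 marker lists (right). Bold values passed at an adjusted p under 0.05, 2 of 36 on the left and 15 of 108 on the right, and Ccn2 has negative or near 0 values with the other targets and a bold value with the immediate early list alone.

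Each gene was then set against 12 lists of 8 marker genes each (all tested but 1 urothelium gene), 108 relations in all, and 15 passed the permutation test, 12 of them positive. In bulk kidney, fewer cells of a type and less RNA per cell cannot be told apart. The share of all other genes that would pass against these lists was not tested, so the counts cannot be called particular to the 9 genes. Macrophage markers (Adgre1, C1qa, C1qb, C1qc, Csf1r, Cd68, Mrc1 and Cx3cr1) moved with 4 of the 9 genes. Their summed level ran from 108 to 203 CPM in HET and from 107 to 208 CPM in WT kidneys. The r was 0.79 for Ltbp2 (rho 0.77, permutation p = 4e-05, adjusted p = 0.00216), 0.74 for Tgfbi (rho 0.76, adjusted p = 0.0106), 0.72 for Tgfbr2 (rho 0.72, adjusted p = 0.00486) and 0.67 for Tgfb1 (rho 0.68, adjusted p = 0.00756). Within batches the r of Ltbp2 was 0.89 in batch 2 and 0.78 in batch 1, that of Tgfbi 0.82 and 0.54, that of Tgfbr2 0.82 and 0.68, and that of Tgfb1 0.71 and 0.68, with batch 2 given first each time. These 4 calls held in all 24 fits that left out 1 mouse and without the 3 libraries in question. Without the 2 mice farthest from the median of the gene, r was 0.84, 0.75, 0.74 and 0.64 in the same order.

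Genes that injured tubules switch on (Havcr1, Lcn2, Krt20, Vcam1, Spp1, Sox9, Krt8 and Krt18) moved with Ltbp2, at r of 0.76 (rho 0.77, permutation p = 0.00013, adjusted p = 0.00468), and r was 0.78 in batch 2 and 0.82 in batch 1. They also moved with Tgfbr2 (r 0.64, rho 0.68, adjusted p = 0.0252) and Tgfb1 (r 0.62, rho 0.66, adjusted p = 0.0230). The call on Tgfb1 ended without WT replicate 11 (adjusted p = 0.0592), and that on Tgfbr2 ended without WT replicate 11 (0.0592) or HET replicate 8 (0.0537). Without the 3 libraries in question r was 0.81 for Ltbp2, 0.67 for Tgfbr2 and 0.70 for Tgfb1, and the 3 calls held. Summed injury markers ran from 913 to 1864.48 CPM in HET and from 857 to 2163.99 CPM in WT kidneys. Most of that sum was Spp1, at a mean of 1132 CPM, whereas r used the mean log2 CPM of the 8 genes.

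Tgfbi had the broadest set of relations with stromal and immune markers. Beside macrophage markers its r was 0.69 with fibroblast (rho 0.70, permutation adjusted p = 0.0150), 0.68 with smooth muscle and pericyte (rho 0.62, adjusted p = 0.0201) and 0.66 with T, B and plasma cell markers (rho 0.66, adjusted p = 0.0218). The fibroblast and smooth muscle calls ended without WT replicate 11, at adjusted p of 0.0855 and 0.0966. Within batch 2 the r of these 3 lists was 0.82, 0.78 and 0.68, and within batch 1 it was 0.48, 0.46 and 0.62. Without the 3 libraries in question it was 0.71, 0.68 and 0.67, and the 3 calls held. The T, B and plasma cell list was low, from 4.51 to 23.5 CPM summed in HET and from 5.48 to 25.1 CPM in WT kidneys. Tgfbr2 also moved with fibroblast markers (r 0.59, rho 0.62, adjusted p = 0.0366), with 0.90 in batch 2 and 0.32 in batch 1. That call ended in 8 of 24 fits that left out 1 mouse, with the largest adjusted p of 0.122 without WT replicate 11, and without the 3 libraries (0.0893). The other 7 mice were HET replicates 8 and 9 and WT replicates 1, 7, 8, 9 and 10.

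The 3 negative calls were with nephron markers. Markers of loop, distal tubule and collecting duct had an r of -0.65 with Tgfbi (rho -0.64, permutation adjusted p = 0.0366) and -0.53 with Tgfbr2 (rho -0.56, adjusted p = 0.0426), and proximal tubule markers had -0.58 with Pmepa1 (rho -0.53, adjusted p = 0.0412). For loop markers the values within batches differed, with r for Tgfbi of -0.79 in batch 2 and -0.35 in batch 1 and for Tgfbr2 of -0.82 in batch 2 and -0.24 in batch 1. For Pmepa1 with proximal tubule markers r was -0.27 in batch 2 and -0.83 in batch 1. That call did not pass by Spearman's rho (permutation adjusted p = 0.0815), with batch means alone removed (0.0603) or without the 3 libraries in question (r -0.54, adjusted p = 0.0832). The calls on loop markers held without these libraries, at r of -0.69 for Tgfbi and -0.62 for Tgfbr2. All 3 relations had the other sign on the log2(TPM + 1) scale, at 0.34, 0.46 and 0.59. The calls ended in 6, 13 and 13 of the 24 fits that left out 1 mouse, with largest adjusted p of 0.133 and 0.122 without WT replicate 11 and 0.124 without HET replicate 3. The first of them ended without HET replicates 7 or 8 or WT replicates 7, 9, 10 or 11. The second was kept without HET replicates 1, 2, 4, 5, 6, 10 or 12 or WT replicates 1, 2, 5 or 6. The third was kept without HET replicates 2, 7, 8, 9, 10, 11 or 12 or WT replicates 1, 2, 3 or 8.

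Ccn2 moved with another list. Immediate early genes (Fos, Fosb, Egr1, Jun, Ier2, Nr4a1, Atf3 and Dusp1), which cells switch on within minutes of a stimulus, had an r of 0.73 with Ccn2 (rho 0.66, permutation p = 4e-05, adjusted p = 0.00216). It was 0.66 in batch 2 and 0.85 in batch 1, 0.76 without the 2 mice farthest from the median of Ccn2, 0.67 without the 3 libraries in question, and the call held in all 24 fits that left out 1 mouse. Their summed level ran from 79.0 to 950 CPM in HET and from 51.8 to 429 CPM in WT kidneys, with medians of 104 and 98.7 CPM. What set the level of this list in a library was not tested. Ccn2 had negative r with macrophage (-0.44), fibroblast (-0.45) and tubular injury markers (-0.38), none of which passed. Podocyte, endothelial, adipose and urothelium markers passed with none of the 9 genes.

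**Figure D5:**
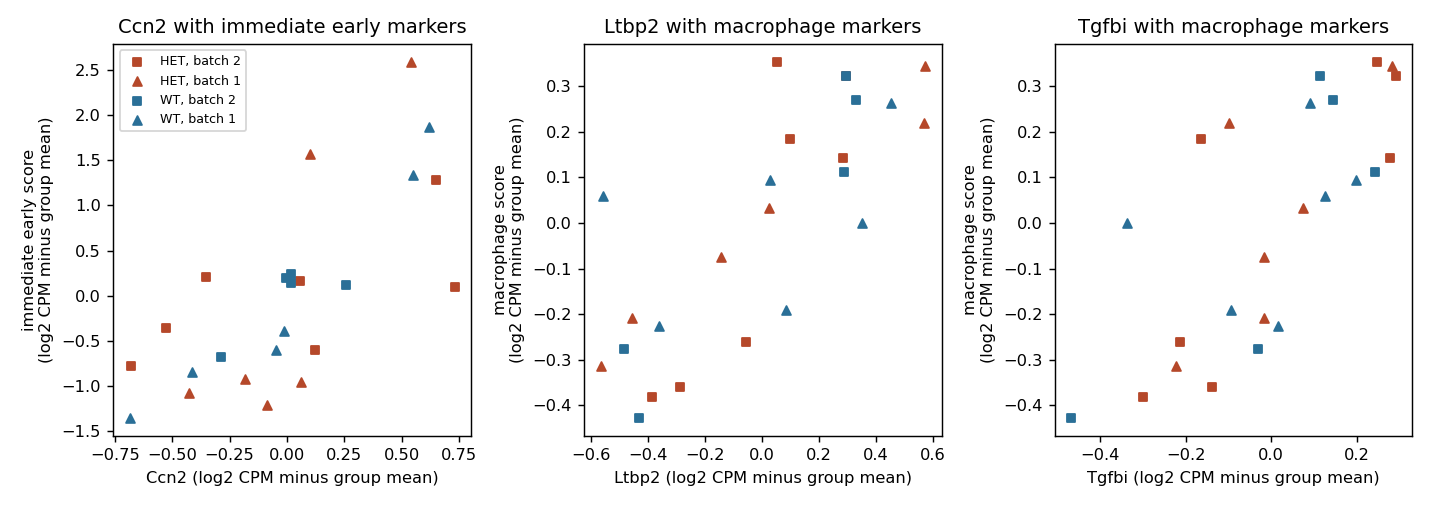
Log2 CPM of Ccn2, Ltbp2 and Tgfbi (x axes) against the mean log2 CPM of a marker list (y axes), each minus its genotype and batch group mean, 1 point per mouse. The r is 0.73 for Ccn2 with immediate early markers and 0.79 for Ltbp2 and 0.74 for Tgfbi with macrophage markers, and HET and WT points are mixed along each trend.

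The genes whose pattern across the 24 mice was most like each of the 9, among 15310 genes of at least 1 CPM, differed in kind. They are given by Pearson's r, as a description. For Ccn2 they were the clock gene Per1 at 0.94, the mitochondrial ubiquitin ligase gene Marchf5 at 0.89 and Slc30a9 at 0.88. Per1 had 44.7 CPM in HET replicate 9 and 58.1 CPM in HET replicate 12, the mice of highest Ccn2. The other HET mice of batch 2 had between 9.97 and 26.6 CPM of Per1 and the WT mice of batch 2 between 10.6 and 15.3 CPM. In batch 1 Per1 ran from 12.6 to 62.6 CPM in the HET mice and from 9.88 to 35.8 CPM in the WT mice. For Ltbp2 they were Aoc1, which breaks down histamine and polyamines, at 0.88, the kinesin gene Kif1a at 0.87 and Ptgfrn at 0.86. For Tgfbi they were Rac2 and Dock2, signalling genes of blood cells, at 0.88 and 0.87, and the pericyte receptor gene Pdgfrb at 0.87, which is also on the smooth muscle list.

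Tgfb1 had Serpinb6b at 0.83, the repressor gene Snai1 at 0.81 and the interferon-inducible Ifi207 at 0.79. Tgfb3 had Plekhg2 at 0.84, the fibronectin receptor chain gene Itga5 at 0.81 and the cytoskeletal Csrp1 at 0.81. Tgfb2 had the weakest neighbours, Gm37742 at 0.72, Gm15675 at 0.63 and Hmgxb4 at 0.62. Tgfbr2 had the collagen I gene Col1a2 at 0.82, Olfml3 at 0.81 and Aldh1a2, which makes retinoic acid, at 0.81, whereas Tgfbr1 had Zfp984, Dcaf10 and Fam199x, each at 0.80. Pmepa1 had Fxyd5 at 0.80, Dapp1 at 0.78 and the phospholipid-binding annexin gene Anxa5 at 0.76. None of these neighbours was shared between the 9 genes.

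The 9 genes are all protein coding in GENCODE M21 on GRCm38. Tgfb1 (ENSMUSG00000002603) is at chr7:25687002-25705077, Tgfb2 (ENSMUSG00000039239) at chr1:186622792-186705989 and Tgfb3 (ENSMUSG00000021253) at chr12:86056745-86079041. Tgfbr1 (ENSMUSG00000007613) is at chr4:47353222-47414931 and Tgfbr2 (ENSMUSG00000032440) at chr9:116084293-116175360. Ccn2 (ENSMUSG00000019997) is at chr10:24595442-24598683, Tgfbi (ENSMUSG00000035493) at chr13:56609523-56639562, Ltbp2 (ENSMUSG00000002020) at chr12:84783212-84876532 and Pmepa1 (ENSMUSG00000038400) at chr2:173224458-173276533. Of the exon bases of Tgfb3, 4.82% and 7.60% lie in exons of Gm37804 and Gm48008 on the other strand, and of those of Tgfb2, 2.14% lie in exons of Gm29491.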

How the data were processed

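Total RNA of kidneys was sequenced after mRNA enrichment, per the labels' protocols. The authors deposited 1 table that holds estimated counts, TPM and FPKM per gene and library. Reads were handled with fastp, STAR and featureCounts on the GRCm38 (mm10) build, per the submitters' processing notes. Versions, strand and annotation are not given in the sources used. The deposited estimated counts were not whole for 11.8% to 15.4% of genes in a library and were rounded. HET replicate 8 has 1 animal number in its title and another in its library name, which its column follows. Replicate numbers are in the order of deposition and pair nothing. Of 55487 identifiers 55227 were found in GENCODE M21.

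Genes were kept by filterByExpr (minimum count 10) of edgeR 4.0.16 in R 4.3.3, which left 18339 genes and 99.9% of counts. Counts were TMM scaled and tested by edgeR's robust quasi-likelihood test with Benjamini-Hochberg adjustment over all genes tested. Correlations used log2 CPM (prior count 2) less the genotype and batch means, with 100000 permutations of mice within groups and adjustment over 36 pairs or 108 marker relations. Alternatives were RLE and upper quartile scaling, no filter, DESeq2 1.42.0, limma 3.58.1 voom, limma on the log2 of deposited TPM and FPKM, left-out libraries and other covariates. The scripts were tested on simulated data. The p-values measure the spread between single libraries of separately numbered mice. Promoters came from RefSeq on GRCm38.p6.

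Members, gene lists, doubted libraries and tests were chosen with earlier results of these data known. All 9 members are named. From each pathway list the text names the 2 genes of smallest p over all mice and the 2 of highest TPM, and for each member the 3 genes of highest r. Nbl1 and Htr6 are given as checks of the labels.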

Additional observations from a re-analysis of the deposited data

Results flagged for a closer look

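Within a genotype and batch, 1 value of the 36 groups examined stood far from the rest: Tgfb3 was 3.22 CPM in HET replicate 10 of batch 2, where the other 6 HET mice of that batch lay between 4.12 and 4.56 CPM. Its gap to the nearest mouse was 0.671 of the range of the 7 mice, above Dixon's critical value of 0.568. Without that mouse the log2 fold change of Tgfb3, HET over WT, was 0.27 over all mice and 0.26 in batch 2, and it passed in neither (edgeR adjusted p = 0.999 and 0.637). Chance gives about 1 such value in 20 groups.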

How the results depend on the processing

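That 0 of the 9 genes passed for HET against WT held over all mice, in each batch and for the interaction in every alternative run. The count for batch 2 against batch 1 was 7 except for 4 on the log2(FPKM + 1) scale, 9 on the log2(TPM + 1) and log2(TPM + 0.1) scales and 6 without the 3 doubted libraries. Of all 18339 genes tested, 11645 passed in the main fit, 9808 on log2(FPKM + 1), 16995 on log2(TPM + 1) and 17014 on log2(TPM + 0.1). Without the doubted libraries 11283 of 18528 genes passed. The slope on Nbl1 passed for 0 except for 7 on the log2(TPM + 1) and log2(TPM + 0.1) scales. On these scales it passed for 7755 and 7954 of all 18339 genes tested. The pairs that passed, 2 of 36, became 1 by Spearman's rho, 20 on log2(TPM + 1), 7 with batch means removed alone, 6 without the 3 doubted libraries, 0 in batch 1 alone and 3 in batch 2 alone, and lay between 0 and 7 with single mice left out. The marker relations, 15 of 108, became 52 on log2(TPM + 1), 2 in batch 1 alone and 10 in batch 2 alone, and lay between 7, without WT replicate 11, and 19, without HET replicate 12.

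Signs turned for values near 0 and for TPM. On the log2(TPM + 1), log2(FPKM + 1) and log2(TPM + 0.1) scales, HET over WT was -0.029, -0.045 and -0.029 for Bgn, -0.024, -0.040 and -0.024 for Ppm1a, -0.028, -0.045 and -0.029 for Wwp1 and -0.037, -0.053 and -0.037 for Nox4. In batch 1 it was 0.059, 0.021 and 0.063 for Tgfbr1 and 0.056, 0.018 and 0.059 for Tgfbr2. The median of all genes moved on these scales too. It was -0.030, -0.038 and -0.036 over all mice and 0.045, 0.018 and 0.063 in batch 1, in the same order. Without the doubted libraries HET over WT was -0.0045 for Bgn, and in batch 1 it was 0.0057 for Tgfbr2 and -0.025 for Ltbp2. Pmepa1 in batch 1 was -0.014 on log2(FPKM + 1). Batch 2 over batch 1 was 0.45 and 0.49 for Tgfb1 and 0.75 and 0.80 for Tgfbr1 on log2(TPM + 1) and log2(TPM + 0.1), and -0.12 for Tgfb2 on log2(FPKM + 1). On log2(TPM + 1) the r with loop markers was 0.46 for Tgfbr2 and 0.34 for Tgfbi, and that of Pmepa1 with proximal tubule markers was 0.59. The causes were not tested. With single mice left out, HET over WT over all mice lay between -0.038 and 0.0013 for Tgfbr1, -0.11 and 0.014 for Ltbp2, -0.024 and 0.042 for Bgn, -0.016 and 0.034 for Wwp1, -0.012 and 0.044 for Nox4 and -0.014 and 0.10 for Col3a1. In batch 1 it lay between -0.035 and 0.012 for Tgfbr1, -0.026 and 0.021 for Tgfbr2, -0.045 and 0.059 for Tgfbi, -0.051 and 0.18 for Ltbp2 and -0.029 and 0.056 for Pmepa1. No paired analysis was possible because the labels tie no HET mouse to a WT mouse. Depth limits Tgfb2 and Tgfb3 most among the 9 genes, since they had the lowest CPM.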
